A study of Mus musculus with 12 samples.

Results

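The genes of cholesterol synthesis and of its regulator SREBP2 were followed in 12 mouse liver libraries. The 27 genes were listed by symbol: the regulator Srebf2, its sensing partners Scap, Insig1 and Insig2, 19 enzymes of the pathway, and 4 genes that move cholesterol within and out of cells. Rows with these symbols made up 27 of the 22537 genes in the count table, with Msmo1 standing under its older symbol Sc4mol. All 27 passed the filter on low counts, which left 13968 genes, and their counts ran from 203 to 30305 reads per library. Levels are given as CPM, which are counts scaled to a common library size with TMM, a correction for differences in library composition.

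Cholesterol is made from acetyl-CoA by way of mevalonate, farnesyl diphosphate, squalene and lanosterol, and the liver is a main site of this synthesis. SREBP2 is a transcription factor held in the endoplasmic reticulum membrane, bound to its escort SCAP. When sterols are plentiful, INSIG proteins keep SCAP in place. When sterols run low, SCAP carries SREBP2 to the Golgi, where it is cut, and the freed part enters the nucleus and switches on the enzymes of the pathway. Its sites on DNA are sterol regulatory elements, which often lie near boxes bound by the factor NF-Y.

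Liver poly-A RNA was sequenced from adult females of the C57BL/6 background, aged 6 months and fed a high-fat diet for 13 weeks, so every group shares sex, age and diet. AHR KO mice are labelled as knockouts of the aryl hydrocarbon receptor, which binds foreign and dietary chemicals and then regulates genes, and AHR Flox mice are their controls with an Ahr gene that carries recombination sites. ARNT KO mice are knockouts of ARNT, the DNA-binding partner of that receptor and of the hypoxia-inducible factors, and ARNT Flox mice are the matching controls. Each group had 3 libraries. The sources used here do not name the recombinase, the cells in which it acts or the exons it removed.

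Libraries held 23585909 to 33255004 counts. Arnt had 25.2, 23.9 and 18.95 CPM in ARNT KO livers, against 47.8, 52.5 and 50.3 CPM in ARNT Flox livers, and fell in ARNT KO (log2 change −1.15 ± 0.12 SE, adjusted p = 0.00601 in edgeR's test over all genes). Ahr had 84.4, 94.8 and 80.3 CPM in AHR KO livers, against 53.9, 78.8 and 72.4 CPM in AHR Flox livers, so it was not lower in the livers labelled AHR KO, and AHR KO is used below as the label. A count over a whole gene does not check a deletion of some of its exons. The library of ARNT KO replicate 3 stood apart on the first principal component (54.9, against −25.5 to 24.04 for the other 11), which held 45.4% of the variance. Its 10 hepatocyte markers summed to 25445 CPM, against 86625 and 88525 CPM in ARNT KO replicates 1 and 2 and 94319 to 116421 CPM in ARNT Flox. Its 5 cholangiocyte markers summed to 308 CPM, against 45.8 to 112 CPM in the other 11 libraries. The hepatocyte sum was also lower in AHR KO, at 42876 to 53687 CPM, against 112270.4 to 123790.3 CPM in AHR Flox. Such a sum is led by its most abundant markers and does not measure the share of hepatocytes. None of the 10 hepatocyte markers was at 0 throughout a group, while 3 of 4 erythrocyte markers were at 0 in all 12 libraries and lymphocyte markers summed to 4.75 to 9.80 CPM. Sums over 6 of 7 macrophage, 6 of 6 stellate and 5 of 5 endothelial markers were 296 to 647, 223 to 547 and 169 to 253 CPM over the 12 libraries. Sums for pancreas and for steroid-making tissue were at most 15.7 and 6.55 CPM. The labels number the libraries of a group but do not say that each came from its own mouse, so p-values measure only the spread between these samples, which may be technical. Where a liver is named with a value or a rank, it stands for 1 library.

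Promoter sequences show what the genes share beyond their place in the pathway. RefSeq promoter windows (GRCm38.p6, 250 bases before to 50 after a transcript start) were matched by symbol for 22 of the 27 genes, with 28 windows. Sqle, Fdft1, Fdps, Npc1 and Stard4 had no window. The NF-Y box CCAAT, searched on both strands like every motif here, lay in a window of 19 of these 22 genes (86.4%), against 41.1% of the 27025 genes with a window and 42.8% of the tested genes. The core of the sterol regulatory element, TCACCCCA, lay in the windows of Srebf2 and Hmgcs1, 162 and 137 bases before the start. These are 9.09% of the 22 genes, against 1.78% of tested genes and 1.56% of all 32851 windows. With a free base at the fifth place, TCACNCCA, it was also in Msmo1, 177 bases before the start. That made 13.6% of the 22 genes, against 4.57% of tested genes and 4.36% of all windows. The core of the AHR and ARNT response element, GCGTG, lay in 14 of the 22 genes (63.6%), against 53.6% of tested genes. The E box CACGTG lay in 6 (27.3%), against 11.3%. Matches of different motifs may share bases, and a match is a string of letters, not a measured binding site.

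Stretches upstream of 5 genes are shown 5′ to 3′ with TCACNCCA and the NF-Y box, on either strand, in capitals. They are the 2 with the sterol element core, Msmo1 with its free-base form, and Mvk and Nsdhl, which had several NF-Y boxes and, within AHR KO, a narrow and a wide range of levels.
Srebf2, chr15:82147089-82147180, plus strand: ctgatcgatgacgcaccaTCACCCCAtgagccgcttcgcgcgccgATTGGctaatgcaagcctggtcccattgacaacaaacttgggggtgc
Hmgcs1, chr13:119690161-119690330, plus strand: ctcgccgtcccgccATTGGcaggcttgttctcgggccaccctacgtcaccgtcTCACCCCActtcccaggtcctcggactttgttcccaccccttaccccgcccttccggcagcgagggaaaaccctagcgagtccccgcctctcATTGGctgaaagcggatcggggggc
Msmo1, chr8:64733729-64733758, minus strand: ttcTCACTCCAtccgcgcagCCAATgactg
Mvk, chr5:114444079-114444263, plus strand: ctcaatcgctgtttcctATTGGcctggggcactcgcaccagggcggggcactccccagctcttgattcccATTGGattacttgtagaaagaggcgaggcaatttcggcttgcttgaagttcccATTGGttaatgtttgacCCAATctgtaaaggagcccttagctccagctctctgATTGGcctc
Nsdhl, chrX:72918391-72918520, plus strand: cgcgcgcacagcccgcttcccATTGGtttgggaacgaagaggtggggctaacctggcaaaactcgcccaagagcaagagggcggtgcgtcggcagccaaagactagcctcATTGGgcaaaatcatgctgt
In Srebf2 the core and the NF-Y box stood close together on the same stretch, 162 and 135 bases before the start. In Hmgcs1 the core lay between NF-Y boxes at 176 and 45 bases before the start. Mvk held 5 NF-Y boxes in its window and none of the sterol element letters, and Nsdhl held 4, of which 2 lie upstream and are printed.

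**Figure D1:**
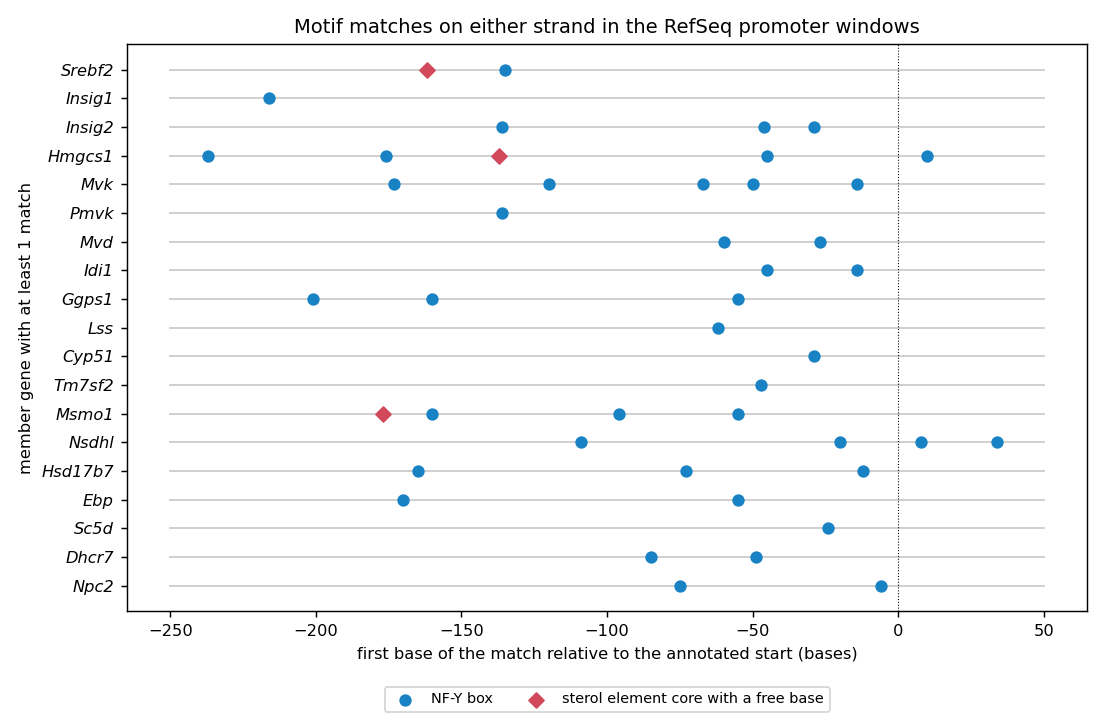
Position of each motif match (first base, in bases from the annotated transcript start at 0) in the RefSeq promoter windows of the 19 genes with at least 1 match. Blue circles are NF-Y boxes and red diamonds the sterol element core with a free base, TCACNCCA, which occurs in Srebf2, Hmgcs1 and Msmo1.

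Levels per kilobase of exon (GENCODE M21 exon lengths, mm10) put the genes in order over all 12 libraries. A length counts every annotated exon base of a gene once, over all its transcripts, which gave 10.8 kb for Lss. The transcripts present in liver may be shorter, so the order depends in part on these lengths. Sc5d, the desaturase of a late ring step, was highest at 139 CPM per kb (range 89.2 to 199). Insig1 followed at 130.1 (89.8 to 217), Ebp, a sterol isomerase, at 94.2 (56.98 to 137) and Hmgcs1, which makes the precursor of mevalonate, at 78.8 CPM per kb (43.00 to 123). The ranges of these 4 overlapped, so their order was not fixed beyond the spread between libraries. Srebf2 itself stood at 11.3 CPM per kb with a narrow range, 10.3 to 12.7. Lowest were Lss, lanosterol synthase, at 4.57 (2.96 to 8.59) and Ggps1, which draws farnesyl diphosphate into geranylgeranyl groups, at 1.85 CPM per kb (1.501 to 2.05). The range of Ggps1 lay below those of the other 26 genes.

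**Figure D2:**
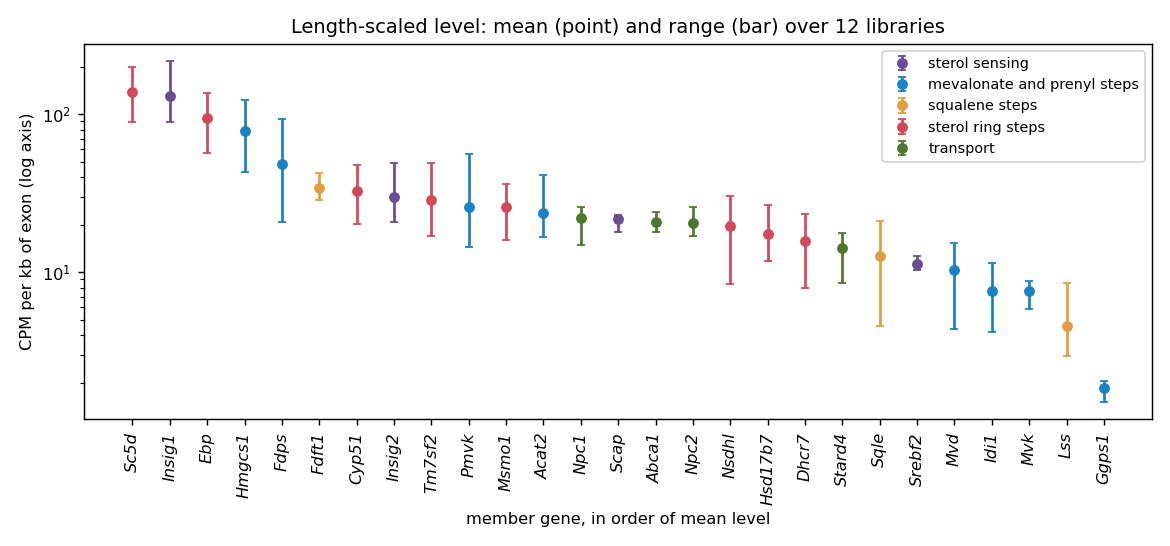
Level of each gene in CPM per kb of exon on a log axis, as the mean (point) and the lowest to highest value (bar) of 12 libraries, coloured by role. Sc5d and Insig1 lead at 139 and 130 CPM per kb, and Ggps1 is lowest at 1.85 CPM per kb.

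The enzymes of the pathway were split within the AHR KO group. In AHR KO replicate 2 all 19 enzymes were at their highest of the group, and in replicates 1 and 3 they lay mostly below every AHR Flox liver. Averaged over the 19 enzymes, the level was 5.68, 6.83 and 5.70 log2 CPM in AHR KO livers, against 6.15, 6.30 and 6.66 log2 CPM in AHR Flox livers. AHR KO replicate 1 was below all 3 AHR Flox livers in 16 of 19 enzymes and replicate 3 in 18 of 19, while replicate 2 was above all 3 in 13 of 19. Over all tested genes, those shares were 29.0% and 29.3% below for replicates 1 and 3, and 31.3% above for replicate 2. Replicate 2 was the highest AHR KO liver in 24 of the 27 genes, against 33.04% of all tested genes. In bulk liver RNA, fewer cells of a type and less RNA per cell cannot be told apart.

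The widest spread lay in enzymes, but not in every enzyme. In AHR KO the SD of log2 CPM was 0.131 for Hsd17b7, 0.222 for Ggps1, 0.244 for Mvk and 0.275 for Fdft1. It was 0.472 for the sensing gene Insig1 and up to 0.270 (Npc1) for transport genes. The highest AHR KO liver was at least 2-fold above the lowest in 13 of the 27 genes, all of them enzymes, against 3.14% of all tested genes (with 0.5 CPM added to each value). In AHR Flox this held for 1 of 27 genes, in ARNT KO for 2 and in ARNT Flox for 0, against 2.11%, 11.1% and 1.28% of tested genes. The median SD of the 27 genes was 0.486 log2 units in AHR KO, 0.242 in AHR Flox, 0.258 in ARNT KO and 0.116 in ARNT Flox, where all tested genes had 0.140, 0.128, 0.195 and 0.111. In AHR KO 15 of the 27 genes were among the 5% of tested genes with the largest SD, against 5, 0 and 1 genes in AHR Flox, ARNT KO and ARNT Flox. Beside this spread, AHR KO replicates 1, 2 and 3 had hepatocyte marker sums of 53687, 42876 and 44157 CPM. The part of these sums, and of the lower hepatocyte sum of AHR KO, in the spread and levels of the genes was not tested.

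**Figure D3:**
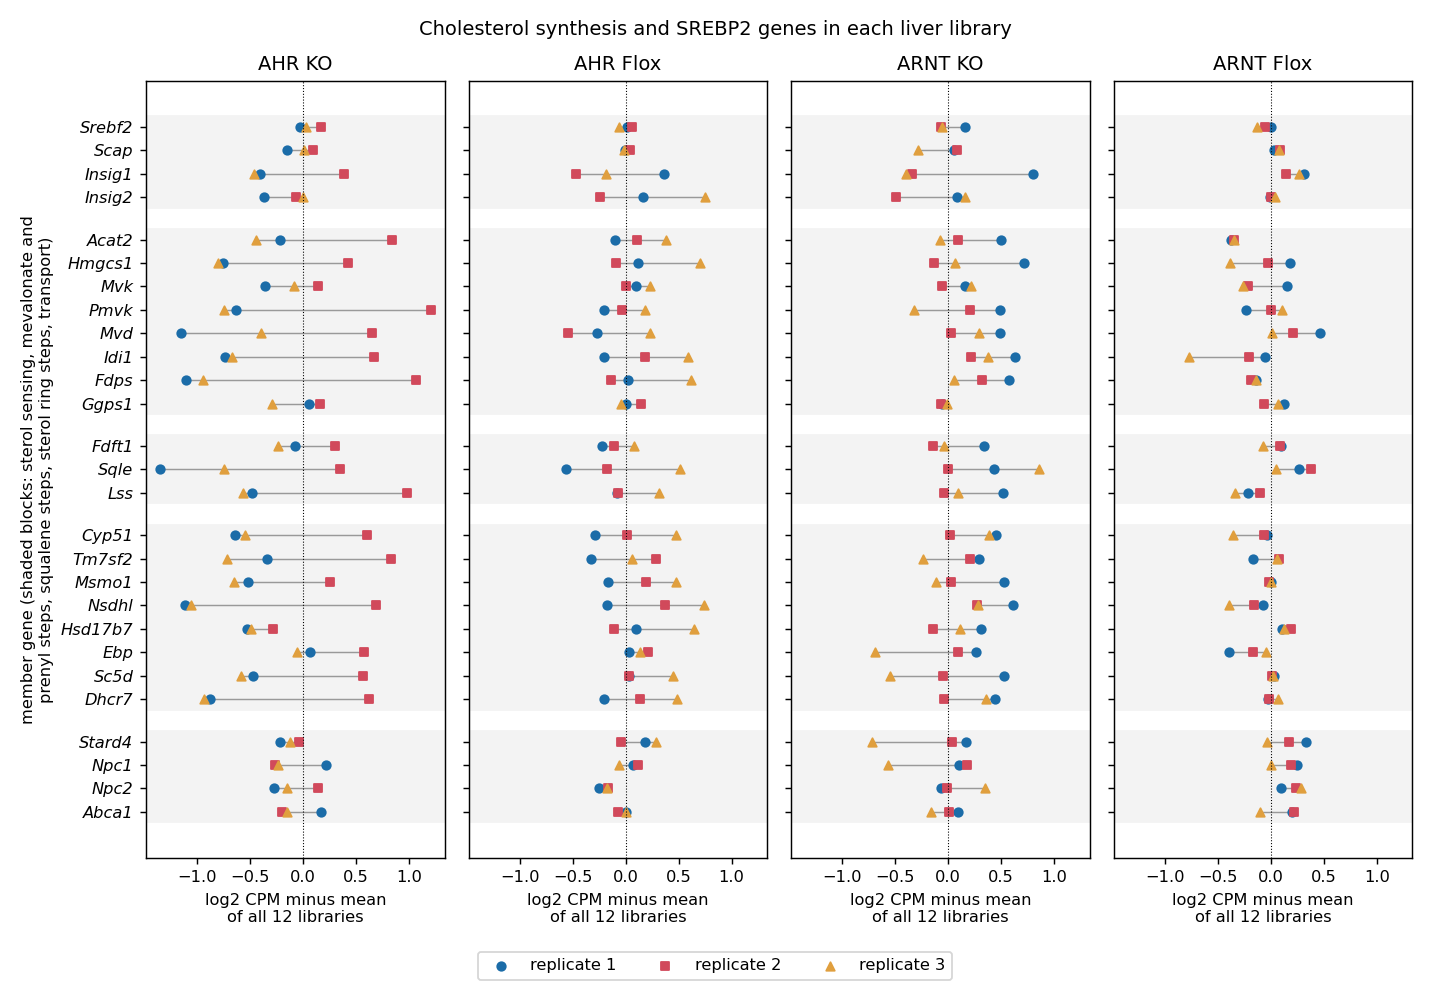
Log2 CPM of each gene in each library minus the gene's mean over all 12 libraries, 1 panel per group, with circles, squares and triangles for replicates 1, 2 and 3 and a line from the lowest to the highest. In AHR KO the squares of replicate 2 lie right of the circles and triangles for all 19 enzymes, and the lines are short for Srebf2, Scap and the transport genes.

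Of the sensing genes, Srebf2 and Scap had a narrow range in AHR KO and Insig1 a wider one. Srebf2 (chr15:82147181-82205379, GENCODE M21, mm10), the gene of SREBP2 itself, had 79.2, 91.02 and 82.7 CPM in AHR KO livers, against 81.6, 84.8 and 77.4 CPM in AHR Flox livers (log2 change 0.05 ± 0.08 SE, adjusted p = 0.860). These values overlapped and lay within 1.15-fold of each other in AHR KO. Scap, the escort, had 145, 172 and 163 CPM in AHR KO livers, against 160.2, 166 and 159 CPM in AHR Flox livers, again with overlap. Insig1, the membrane anchor that is itself switched on by SREBP2, had 291, 503 and 280.3 CPM in AHR KO livers, against 496, 278 and 339 CPM in AHR Flox livers: replicate 2 was highest in AHR KO, and replicate 1 in AHR Flox. Insig2, the second anchor, had 78.6, 97.04 and 101 CPM in AHR KO livers, against 114, 85.9 and 171 CPM in AHR Flox livers (log2 change −0.42 ± 0.23 SE, adjusted p = 0.501), with AHR Flox replicate 3 above all other livers of the pair.

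The early steps, which build mevalonate and farnesyl diphosphate, showed the split in most genes. Fdps (chr3:89093588-89101959), farnesyl diphosphate synthase, had 87.7, 394 and 97.9 CPM in AHR KO livers, against 192, 171 and 289.7 CPM in AHR Flox livers. Its highest AHR KO liver was 4.49-fold above its lowest, the widest ratio among the 27 genes in any group, and both other AHR KO livers lay below the AHR Flox range. Pmvk, phosphomevalonate kinase, had 26.6, 95.6 and 24.7 CPM in AHR KO livers, against 35.9, 40.3 and 46.96 CPM in AHR Flox livers, a 3.88-fold range in AHR KO. Mvd, which decarboxylates mevalonate diphosphate, had 8.17, 28.4 and 13.7 CPM in AHR KO livers, against 14.98, 12.4 and 21.2 CPM in AHR Flox livers. In both, replicate 2 exceeded every AHR Flox liver and replicate 1 was below each of them. Idi1, the isomerase of isopentenyl diphosphate, had 15.1, 40.02 and 15.8 CPM in AHR KO livers, against 21.9, 28.6 and 37.9 CPM in AHR Flox livers. Hmgcs1, cytosolic HMG-CoA synthase, had 204, 462 and 198 CPM in AHR KO livers, against 372, 324 and 558 CPM in AHR Flox livers, so AHR KO replicates 1 and 3 were low while replicate 2 stayed inside the AHR Flox range. Acat2, the cytosolic thiolase that opens the pathway, had 49.8, 104 and 42.6 CPM in AHR KO livers, against 54.4, 62.4 and 75.8 CPM in AHR Flox livers. Only replicate 2 was above AHR Flox for Acat2. Mvk, mevalonate kinase, had 15.6, 22.1 and 18.9 CPM in AHR KO livers, against 21.4, 20.2 and 23.5 CPM in AHR Flox livers, a smaller range of 1.42-fold. Ggps1, on the branch to protein prenylation, had 9.01, 9.67 and 7.09 CPM in AHR KO livers, against 8.68, 9.57 and 8.41 CPM in AHR Flox livers, with replicate 3 lowest.

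Of the squalene steps, Sqle and Lss were split and Fdft1 was less so. Sqle, squalene epoxidase, a rate-limiting enzyme of the pathway, had 25.4, 82.8 and 38.7 CPM in AHR KO livers, against 44.00, 57.5 and 92.8 CPM in AHR Flox livers, with AHR Flox replicate 3 highest of the 6. Lss, which closes squalene epoxide into lanosterol, had 33.7, 92.7 and 31.9 CPM in AHR KO livers, against 44.4, 44.8 and 58.8 CPM in AHR Flox livers: replicate 2 was above and both others below the AHR Flox range. Fdft1, squalene synthase, had 135, 176 and 121 CPM in AHR KO livers, against 122, 132 and 150.5 CPM in AHR Flox livers, a range of 1.45-fold in AHR KO.

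Among the sterol ring steps, Hsd17b7 differed from its neighbours by being low in all AHR KO livers. Hsd17b7 (chr1:169949535-169969241), the reductase of the keto group left by demethylation, had 59.9, 71.02 and 61.5 CPM in AHR KO livers, against 92.8, 80.1 and 135 CPM in AHR Flox livers. The groups did not overlap, and the gene had the smallest adjusted p of the 27 (log2 change −0.68 ± 0.17 SE, adjusted p = 0.144). Without AHR Flox replicate 3, its highest library, the log2 change was −0.44 ± 0.13 SE (adjusted p = 0.489), and over 21 alternatives its adjusted p ran from 0.0164 to 0.489. Nsdhl (chrX:72918557-72958514), the dehydrogenase of the same demethylation complex, had 24.1, 83.9 and 25.1 CPM in AHR KO livers, against 46.3, 67.6 and 87.3 CPM in AHR Flox livers: replicates 1 and 3 were far below AHR Flox and replicate 2 was inside its range. Dhcr7, the reductase that makes cholesterol from its direct precursor, had 47.5, 135 and 45.9 CPM in AHR KO livers, against 76.05, 96.1 and 123 CPM in AHR Flox livers. Tm7sf2, a sterol ring reductase, had 96.7, 218 and 74.1 CPM in AHR KO livers, against 97.4, 149 and 128 CPM in AHR Flox livers. Cyp51, lanosterol demethylase, had 88.6, 209 and 94.5 CPM in AHR KO livers, against 113, 139 and 192 CPM in AHR Flox livers. In these last 3 replicate 2 exceeded all AHR Flox livers and replicates 1 and 3 were below them. Sc5d had 470.2, 969.8 and 434 CPM in AHR KO livers, against 666, 669.5 and 893 CPM in AHR Flox livers, with the same order. Msmo1, methylsterol monooxygenase, had 108, 183 and 97.8 CPM in AHR KO livers, against 138, 176 and 214 CPM in AHR Flox livers, so replicate 2 was within the AHR Flox range. Ebp had 223, 317 and 204 CPM in AHR KO livers, against 217, 246 and 233 CPM in AHR Flox livers, with replicate 2 above and replicate 3 below AHR Flox.

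The transport genes differed little between AHR KO and AHR Flox. Stard4, a cytosolic sterol carrier, had 67.3, 75.8 and 71.9 CPM in AHR KO livers, against 88.6, 75.9 and 95.5 CPM in AHR Flox livers: the groups did not overlap, though AHR KO replicate 2 and AHR Flox replicate 2 nearly met (log2 change −0.27 ± 0.19 SE, adjusted p = 0.623). Npc1, which exports cholesterol from lysosomes through their membrane, had 288, 206 and 211 CPM in AHR KO livers, against 261, 269 and 237 CPM in AHR Flox livers, and its soluble partner Npc2 had 91.5, 122 and 99.8 CPM in AHR KO livers, against 92.97, 98.9 and 97.7 CPM in AHR Flox livers. Abca1, the pump that loads cholesterol onto lipoproteins and a target of the sterol receptor LXR, had 240.0, 186 and 192 CPM in AHR KO livers, against 214, 203 and 213 CPM in AHR Flox livers. For Npc1 and Abca1 replicate 1, not replicate 2, was the highest AHR KO liver.

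No member passed the test in AHR KO against AHR Flox. Called genes were those with an adjusted p under 0.05 in edgeR's quasi-likelihood test, adjusted over all tested genes by Benjamini-Hochberg: 0 of 27, against 0.0788% of tested genes (11 genes). At an unadjusted p under 0.05 the list held 1 gene, Hsd17b7, against 11.9% of tested genes. DESeq2 called Hsd17b7 (adjusted p = 0.0164) among 3.19% of the genes it gave an adjusted p, and limma-voom called 0. Changes ran from −0.68 to 0.26 on the log2 scale with a median of −0.12, against 0.01 over all tested genes, and 18 of 27 were below 0, against 48.9%. The standard error of the enzymes was 0.12 to 0.46 (median 0.33). Hsd17b7 and Stard4 were lower without overlap, 7.41% of the genes, against 9.46% of tested genes, and 0 were higher without overlap, against 11.7%.

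Leaving out AHR KO replicate 2 moved these values most. That library was the highest AHR KO liver in 24 of these 27 genes. Lower changes and smaller p-values without it follow from these same values and are no separate evidence. Without replicate 2, 26 of 27 genes were below 0, against 51.6% of tested genes in that fit, and the median was −0.56. An unadjusted p under 0.05 was found for 15 genes, against 10.3% of tested genes, and 0 were called, against 0.0353%. Nsdhl then had a log2 change of −1.46 ± 0.23 SE (adjusted p = 0.0775), the smallest adjusted p of the list. Fdps was at −1.24 ± 0.22 and Dhcr7 at −1.08 ± 0.19 (adjusted p = 0.119 for both). Also without it, 16 genes were lower without overlap (59.3%, against 14.8% of tested genes). Without AHR KO replicate 1 or 3 the median was −0.08 or 0.0014, and without AHR Flox replicate 3 it was −0.06.

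**Figure D4:**
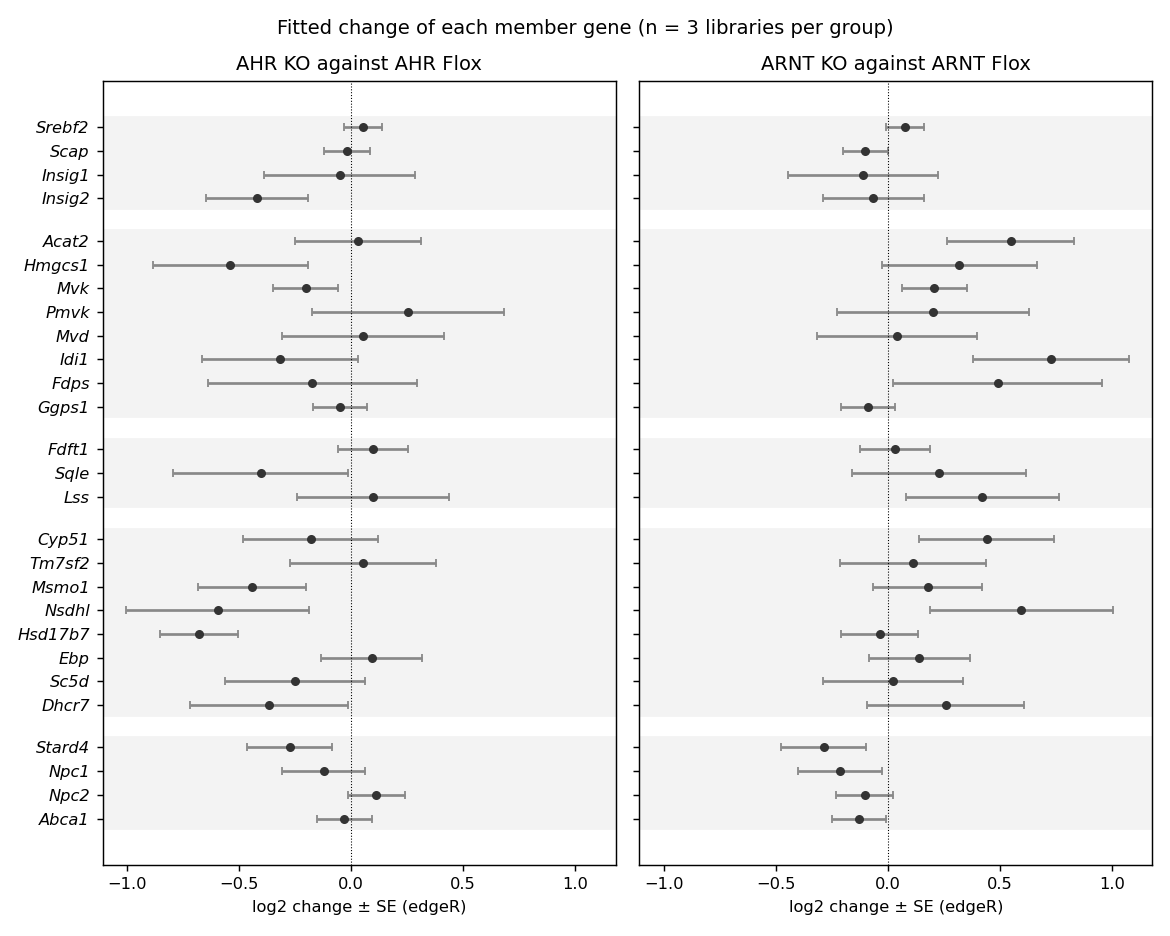
Log2 change of each gene with its standard error in edgeR's fit (n = 3 libraries per group), AHR KO against AHR Flox on the left and ARNT KO against ARNT Flox on the right, with roles in shaded blocks. Hsd17b7 lies lowest on the left at −0.68 ± 0.17, and Idi1 highest on the right at 0.73 ± 0.35.

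In ARNT KO livers, 6 enzymes lay above every ARNT Flox liver, though no gene passed the test. The 6 were Acat2, Idi1, Fdps, Lss, Cyp51 and Nsdhl, 22.2% of the genes, against 5.94% of tested genes. None was lower without overlap, against 4.9% of tested genes. Idi1 had 39.1, 29.2 and 32.8 CPM in ARNT KO livers, against 24.3, 21.9 and 14.7 CPM in ARNT Flox livers (log2 change 0.73 ± 0.35 SE, adjusted p = 0.840). Nsdhl had 79.6, 62.97 and 63.3 CPM in ARNT KO livers, against 49.7, 46.8 and 39.7 CPM in ARNT Flox livers (log2 change 0.60 ± 0.41 SE, adjusted p = 0.940). Acat2 had 81.96, 61.96 and 55.2 CPM in ARNT KO livers, against 44.9, 45.5 and 45.7 CPM in ARNT Flox livers (log2 change 0.55 ± 0.28 SE, adjusted p = 0.861), and the ARNT Flox values of this gene were nearly equal.

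Of the other 3, Cyp51 had 189, 139.8 and 180.0 CPM in ARNT KO livers, against 135, 132 and 108 CPM in ARNT Flox livers, and ARNT Flox replicate 3 was lowest. Fdps had 281, 235 and 196 CPM in ARNT KO livers, against 171, 166 and 171 CPM in ARNT Flox livers, with ARNT KO replicate 3 nearest to the ARNT Flox livers. Lss had 67.3, 45.9 and 50.1 CPM in ARNT KO livers, against 40.6, 43.95 and 37.4 CPM in ARNT Flox livers (log2 change 0.42 ± 0.34 SE, adjusted p = 0.967). In all 3, replicate 1 was the highest ARNT KO liver.

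ARNT KO replicate 1 was the high library of its group. It was the highest ARNT KO liver in 16 of 19 enzymes and above all ARNT Flox livers in 18 of 19, whereas replicates 2 and 3 were above them in 10 and 9. Over all tested genes the shares above ARNT Flox were 33.6%, 29.5% and 36.0% for replicates 1, 2 and 3. The enzymes averaged 6.71, 6.32 and 6.33 log2 CPM in ARNT KO livers, against 6.26, 6.24 and 6.14 log2 CPM in ARNT Flox livers. Insig1 had 672, 305 and 293 CPM in ARNT KO livers, against 478, 427 and 465 CPM in ARNT Flox livers, with ARNT KO replicate 1 far above and the other ARNT KO livers below every ARNT Flox liver. Hmgcs1 had 565, 313 and 359 CPM in ARNT KO livers, against 389.7, 338 and 264 CPM in ARNT Flox livers, where replicates 2 and 3 lay within the ARNT Flox range. Sc5d had 941, 631 and 447 CPM in ARNT KO livers, against 667, 658 and 662 CPM in ARNT Flox livers: ARNT Flox was nearly uniform and ARNT KO spread to both sides of it. Sqle had 87.2, 64.6 and 117 CPM in ARNT KO livers, against 78.1, 84.4 and 67.1 CPM in ARNT Flox livers, and here replicate 3 was highest.

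The remaining enzymes overlapped between ARNT KO and ARNT Flox. Dhcr7 had 119, 85.4 and 112 CPM in ARNT KO livers, against 85.8, 86.6 and 91.96 CPM in ARNT Flox livers, and Msmo1 had 222, 157 and 142 CPM in ARNT KO livers, against 155, 153 and 154 CPM in ARNT Flox livers, with replicate 1 highest in both. Pmvk had 58.2, 47.6 and 33.1 CPM in ARNT KO livers, against 35.2, 41.3 and 44.4 CPM in ARNT Flox livers, with replicate 3 lowest. Mvd had 25.5, 18.4 and 22.1 CPM in ARNT KO livers, against 24.9, 20.9 and 18.3 CPM in ARNT Flox livers, and the ranges overlapped. Mvk had 22.3, 19.3 and 23.3 CPM in ARNT KO livers, against 22.3, 17.2 and 16.7 CPM in ARNT Flox livers. Tm7sf2 had 149, 141 and 104 CPM in ARNT KO livers, against 109, 129 and 127 CPM in ARNT Flox livers, and Ebp had 255, 227 and 132 CPM in ARNT KO livers, against 161, 189.6 and 205 CPM in ARNT Flox livers. ARNT KO replicate 3 was the lowest of its group for Tm7sf2 and Ebp, and the highest for Mvk. Fdft1, Hsd17b7 and Ggps1 had log2 changes of 0.03 ± 0.16, −0.04 ± 0.17 and −0.09 ± 0.12 SE. Hsd17b7, low in all AHR KO livers, thus had 107, 78.2 and 93.6 CPM in ARNT KO livers, against 93.2, 98.5 and 94.1 CPM in ARNT Flox livers.

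Of the 4 sensing and 4 transport genes, none was higher or lower without overlap in ARNT KO, against 5.94% and 4.9% of tested genes. At these shares, finding none in so short a list says little about these genes. Srebf2 had 90.6, 77.2 and 77.96 CPM in ARNT KO livers, against 81.1, 77.9 and 73.9 CPM in ARNT Flox livers (log2 change 0.08 ± 0.08 SE, adjusted p = 0.995), with replicate 1 highest of the 6. Scap and Insig2 had log2 changes of −0.10 ± 0.10 and −0.07 ± 0.23 SE. Stard4 had 87.9, 80.2 and 47.4 CPM in ARNT KO livers, against 98.5, 87.9 and 76.4 CPM in ARNT Flox livers (log2 change −0.29 ± 0.19 SE, adjusted p = 0.934), and Npc1 had 266, 279.6 and 168 CPM in ARNT KO livers, against 295, 284 and 249 CPM in ARNT Flox livers. In both, ARNT KO replicate 3, the library that stood apart, was lowest of the 6 livers. Abca1 had 227, 215 and 191 CPM in ARNT KO livers, against 245, 248 and 199 CPM in ARNT Flox livers. Npc2 had 106, 110.0 and 141 CPM in ARNT KO livers, against 118, 130.4 and 135 CPM in ARNT Flox livers, and there replicate 3 was the highest.

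In ARNT KO against ARNT Flox edgeR called 0 of 27 genes, against 0.0573% of tested genes (8 genes). At an unadjusted p under 0.05 the list held 0, against 5.88% of tested genes, and DESeq2 and limma-voom called 0 as well. The median log2 change was 0.11, against 0.01 over all tested genes, with 18 of 27 above 0, against 52.6%. This fit estimates the spread of a gene over all groups, so the spread within AHR KO enters the ARNT test. In edgeR's fit of only the ARNT groups, 6 genes had an unadjusted p under 0.05, against 4.76% of tested genes. Leaving AHR KO replicate 2 out of the full fit also gave 6, against 5.83%. Neither fit called a member. Without ARNT KO replicate 1 the median was −0.02, with 13 genes above 0. Without ARNT KO replicate 3, 10 genes were higher without overlap (37%, against 19% of tested genes), 0 were called and the lowest adjusted p was 0.291. Without replicate 2 the number was also 10, against 9.84% of tested genes. In ARNT KO replicate 3, Stard4, Npc1 and Ebp were the lowest of the ARNT livers, and Npc2, Sqle and Mvk the highest. Of the 27 genes, 11 lay above every ARNT Flox liver in that library and 10 below. The part of its marker sums, given above, in these values was not tested.

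The AHR effect minus the ARNT effect asks whether loss of the partners differed. It was below 0 in 17 of 27 genes, against 52.1% of tested genes, with a median of −0.27, against −0.01. All 8 sterol ring genes were below 0, and all 4 transport genes above it. ARNT Flox against AHR Flox gave the same signs for all 8 and all 4, and both control groups enter the difference. These signs therefore cannot be told apart from a gap between the control lines. The difference was largest in Nsdhl (log2 change −1.19 ± 0.58 SE, adjusted p = 0.564) and Idi1 (log2 change −1.04 ± 0.49 SE, adjusted p = 0.549), followed by Hmgcs1 at −0.86 ± 0.49 SE. No gene passed: edgeR, DESeq2 and limma-voom called 0 of 27, where edgeR called 0.043% of tested genes. At an unadjusted p under 0.05 there was 1 gene, Hsd17b7 (log2 change −0.64 ± 0.24 SE, adjusted p = 0.436), against 9.51% of tested genes. Without AHR KO replicate 2 the median was −0.67, 14 genes had an unadjusted p under 0.05, against 8.74% of tested genes in that fit, and 0 were called, with the lowest adjusted p of 0.0833 in Nsdhl. Here too, the library left out stood out in these same genes, so these values are no separate evidence. Without ARNT KO replicate 1 the median was 0.02, without AHR KO replicate 1 or 3 it was −0.09 or −0.07, and without AHR Flox replicate 3 it was −0.07.

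The 2 control lines were also compared, because each serves as the baseline of its knockout. Npc2, the soluble lysosomal carrier, was higher without overlap in ARNT Flox (3.7% of the genes, against 18.1% of tested genes), and Acat2, Fdps, Lss and Ebp were lower (14.8%, against 17.7%). Npc2 had 118, 130.4 and 135 CPM in ARNT Flox livers, against 92.97, 98.9 and 97.7 CPM in AHR Flox livers (log2 change 0.41 ± 0.13 SE, adjusted p = 0.149). Acat2 had 44.9, 45.5 and 45.7 CPM in ARNT Flox livers, against 54.4, 62.4 and 75.8 CPM in AHR Flox livers (log2 change −0.50 ± 0.28 SE, adjusted p = 0.341), and Ebp had 161, 189.6 and 205 CPM in ARNT Flox livers, against 217, 246 and 233 CPM in AHR Flox livers (log2 change −0.32 ± 0.23 SE, adjusted p = 0.436). Fdps had 171, 166 and 171 CPM in ARNT Flox livers, against 192, 171 and 289.7 CPM in AHR Flox livers, where the nearest livers, AHR Flox replicate 2 and ARNT Flox replicate 3, almost met. Lss had 40.6, 43.95 and 37.4 CPM in ARNT Flox livers, against 44.4, 44.8 and 58.8 CPM in AHR Flox livers, and its nearest livers were AHR Flox replicate 1 and ARNT Flox replicate 2.

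In this comparison edgeR called 0 of 27 genes, against 0.329% of tested genes (46 genes), and 1 gene, Npc2, had an unadjusted p under 0.05, against 19.9%. DESeq2 and limma-voom called 0. Without ARNT KO replicate 3 in the fit Npc2 was called (adjusted p = 0.0298), among 10.9% of tested genes. The median log2 change was −0.11, against −0.00075 over all tested genes, with 17 of 27 below 0, against 50.1%. Acat2, Fdps and Lss, lower in ARNT Flox than in AHR Flox, are among the 6 enzymes that were higher in ARNT KO than in ARNT Flox. Those comparisons share the ARNT Flox livers.

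Genes around the pathway gave no called gene in any of the 4 comparisons of edgeR's fit, in 5 lists of 11 to 15 tested genes. In AHR KO the fatty acid genes under SREBP1 had the largest median, −0.31 with 12 of 15 below 0, and 0.39 with 11 of 15 above 0 in ARNT KO. They were split like the cholesterol enzymes: AHR KO replicate 2 was highest in 15 of 15, AHR Flox replicate 3 in 13, and ARNT KO replicate 1 in 12. Fasn, fatty acid synthase, had 186, 831 and 420.1 CPM in AHR KO livers, against 826, 698 and 898 CPM in AHR Flox livers (log2 change −0.75 ± 0.41 SE, adjusted p = 0.511). Gpam, the first enzyme of glycerolipid synthesis, had 89.4, 132 and 119 CPM in AHR KO livers, against 159, 134 and 228 CPM in AHR Flox livers (log2 change −0.61 ± 0.23 SE, adjusted p = 0.318). Gpam, picked for its small p, was lower in AHR KO without overlap, as were 9.46% of tested genes. Its AHR KO replicate 2 lay just below AHR Flox replicate 2.

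The other 4 lists had medians nearer to 0 in AHR KO. Of the genes that cut and process SREBP, Mbtps2, the membrane protease, had 9.47, 10.52 and 9.81 CPM in AHR KO livers, against 11.5, 12.3 and 11.1 CPM in AHR Flox livers (log2 change −0.23 ± 0.10 SE, adjusted p = 0.411). Mbtps1, the Golgi protease that cuts first, had 73.1, 73.7 and 80.9 CPM in AHR KO livers, against 66.8, 70.03 and 70.3 CPM in AHR Flox livers (log2 change 0.14 ± 0.06 SE, adjusted p = 0.428). Neither pair of groups overlapped, where 9.46% of tested genes were lower and 11.7% higher without overlap. Mbtps2 and Mbtps1 were picked for the smallest p of their list, so this is no separate evidence. On the isoprenoid branch, Pggt1b, the prenyl transferase subunit of small GTPases, had 7.74, 7.44 and 8.56 CPM in AHR KO livers, against 9.37, 10.1 and 12.01 CPM in AHR Flox livers (log2 change −0.41 ± 0.12 SE, adjusted p = 0.208), and Rabggtb, its counterpart for Rab proteins, had a log2 change of 0.26 ± 0.10 SE (adjusted p = 0.333). Among genes of esterification, uptake and transport, the sterol carrier Osbpl2 had a log2 change of −0.23 ± 0.09 SE (adjusted p = 0.346) and Stard3, another, had a log2 change of 0.19 ± 0.08 SE (adjusted p = 0.398). Of the LXR receptors and targets, Abcg5 had a log2 change of 0.27 ± 0.11 SE (adjusted p = 0.363) and Abcg8 had a log2 change of 0.19 ± 0.11 SE (adjusted p = 0.517); together they form the pump that sends sterols into bile.

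In these lists the medians were −0.04, −0.03, 0.06 and 0.03 in AHR KO, and −0.03, 0.04, −0.03 and −0.11 in ARNT KO, against 0.01 over all tested genes in both. Without ARNT KO replicate 3, edgeR called genes of 3 lists in ARNT Flox against AHR Flox: Pdss2 and Fnta on the isoprenoid branch, Soat1, Stard5 and Gramd1c among transport genes, and Nr1h3, Abcg1, Abcg5 and Scd2 among LXR genes. These are 2 of 13, 3 of 15 and 4 of 11 genes, where that fit called 10.9% of all tested genes. It then also called Scd2 in ARNT KO, among 1.37% of tested genes, and Abcg5 in the difference between effects, among 1.38%. These names were chosen after their values were seen. Scd2 had 7.63, 10.5 and 116 CPM in ARNT KO livers, against 27.6, 38.7 and 19.7 CPM in ARNT Flox livers. ARNT KO replicates 1 and 2 thus lay below every ARNT Flox liver and replicate 3, the library left out, above them all.

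**Figure D5:**
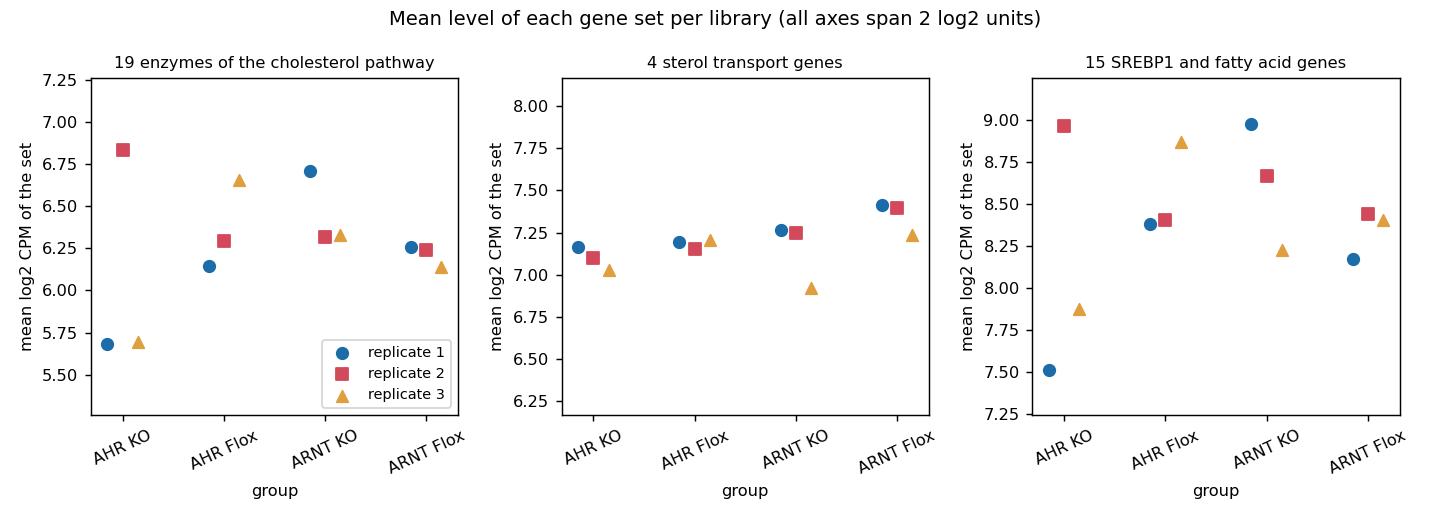
Mean log2 CPM of 3 gene sets in each library (circles, squares and triangles for replicates 1, 2 and 3), by group, with all axes spanning the same 2 log2 units. The 19 enzymes range from 5.68 to 6.83 within AHR KO and the 15 SREBP1 and fatty acid genes from 7.51 to 8.96, while the 4 transport genes stay between 7.03 and 7.17.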

How the data were processed

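Gene counts per library were deposited by the authors as whole-number raw counts, with no normalization, for 22537 genes in 12 libraries. Total RNA was extracted with Trizol and poly-A libraries were made with NEBNext Ultra II, per the labels' protocols. The submitters' processing notes name the build mm10, DESeq2 1.20.0 with R 3.5.1, the aligner STAR in versions 2.6.0c and 2.5.4b, and bcl2fastq 2.20. No source used here gives the counting tool, strand setting or annotation, so reads shared with overlapping or near-identical genes cannot be separated.

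Libraries were grouped by their labels. Genes were filtered with filterByExpr (minimum count 10, minimum total 15), which left 13968 genes and 99.98% of counts. A model with 4 group means over all 12 libraries was fitted with edgeR 4.0.16 (R 4.3.3; TMM scaling, quasi-likelihood test) and checked on simulated counts. The 4 contrasts were tested with p-values adjusted by Benjamini-Hochberg over all tested genes and a threshold of 0.05. SE is the size of the log2 change over the square root of F. The common coefficient of variation between libraries was 17.5%. DESeq2 1.42.0, limma 3.58.1 (voom), other filters and scalings, a replicate block and leaving out each library made up 21 alternatives. With 3 libraries per group, an exact permutation test could not go below p = 0.1, so none was used. A count of 0 would allow 0.0861 to 0.126 CPM (3 counts, counting error only).

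The members, pathway lists, marker lists and tests were chosen with earlier results of these data known. All 27 members are named; genes of other lists are the 2 with the smallest p in AHR KO, plus those called without ARNT KO replicate 3. Some genes of the pathway are not reported. Gene positions and exon lengths came from GENCODE M21 and promoter windows from RefSeq GRCm38.p6. Tables were handled with Python 3.11.15 and pandas 2.3.3.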

Additional observations from a re-analysis of the deposited data

How the results depend on the processing

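Over 21 alternatives, edgeR, DESeq2 and limma-voom gave 0 called members in most settings. The exceptions in AHR KO against AHR Flox were DESeq2, with 1 (Hsd17b7), and in ARNT Flox against AHR Flox 1 with quality weights, 2 in a fit of only those groups, and 0 to 1 on leaving out a library. The number of all genes called moved far more. In AHR KO it was 11, and 28 with no filter, 19 with a filter at 1 CPM, 359 with DESeq2, 82 with quality weights and 5 to 136 on leaving out a library. In ARNT KO it was 8, and 56 with DESeq2, 5 with limma-voom, 422 with quality weights, 1 in a fit of only those groups and 1 to 193 on leaving out a library. For the difference between effects it was 6, and 148 with DESeq2, 238 with quality weights and 1 to 194 on leaving out a library. In ARNT Flox against AHR Flox it was 46, and 572 with DESeq2, 2395 with quality weights, 1615 in a fit of only those groups and 12 to 1532 on leaving out a library. On leaving out a library the members' median log2 change ranged from −0.56 to 0.0014 in AHR KO, from −0.02 to 0.15 in ARNT KO, from −0.67 to 0.023 for the difference and from −0.19 to −0.02 between the Flox groups. Members higher without overlap numbered 0 to 1, 6 to 10 and 1 to 5 in AHR KO, ARNT KO and ARNT Flox, where 15.8 to 17.6%, 8.43 to 19% and 21.3 to 24.1% of tested genes were so placed. Members lower without overlap numbered 2 to 16, 0 to 2 and 4 to 10, where 13 to 15.3%, 7.61 to 18.6% and 20.9 to 23.7% of tested genes were so placed. Each of these shares is above its own value with all libraries. This follows from the measure: groups that do not overlap still do not overlap when a library is left out. A share can therefore only stay or rise. With the replicate block, 0 members were called in any contrast and 10, 3, 4 and 23 genes in AHR KO, ARNT KO, the difference and the Flox comparison. The labels do not say that replicate numbers pair the samples. Correlations of same-numbered deviations were 0.0374 to 0.197 for AHR, −0.0038 to 0.0373 for ARNT and 0.0948 to 0.362 between the Flox groups. Those of differently numbered livers were −0.190 to 0.131, −0.0609 to 0.0361 and −0.288 to 0.159. The highest was 0.362 between replicate 1 of both Flox groups, but ARNT Flox replicate 3 correlated best with AHR Flox replicate 2 (0.159). A batch shared by number cannot be told from these values.

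Limits are the 3 libraries per group, the AHR KO library that carries the enzymes' spread, the ARNT KO library that stands apart, and the unknown recombinase and counting rules. Depth was not limiting for these genes, whose lowest count was 203.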
